A study of Mus musculus with 6 samples.

Results

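The regions described here are the DNase I hypersensitive sites of mouse liver around 3 genes of the insulin and insulin-like growth factor pathway: Irs2, Igfbp1 and Igfbp3. They were found by merging the hotspots of all 6 libraries that overlapped by at least 1 bp, and by keeping the merged regions that touch 1 of 2 windows of the mm9 genome. The Irs2 window spans 10940000 to 11080000 of chromosome 8 and held 17 regions. The Igfbp1 and Igfbp3 window spans 7050000 to 7170000 of chromosome 11 and held 10 regions. These 27 regions are a small part of the 75169 regions of chromosomes 1 to 19 and X. The rule uses positions and no densities, but the windows were chosen with earlier results of these data known. Of the 27 regions, 17 were called in all 6 libraries (13 in the Irs2 window and 4 in the Igfbp window), as were 37044 regions of the whole series. These are named shared regions, and the groups were tested on them.

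The libraries come from livers of C57BL/6 mice, 3 from mice with free access to food (fed) and 3 from mice fasted for 24 h (fasted). All mice were kept in the same light cycle and killed at 6 in the morning, and no mutation or drug is given in the labels. Nuclei were digested with DNase I, which cuts DNA in open chromatin, so a stretch with many sequenced ends marks an accessible promoter, enhancer or other regulatory site. The labels number the replicates but do not say that each is a separate animal, and all p-values therefore rest on library-to-library spread, some of which may be technical. No mm9 gene annotation was used here. The regions are therefore numbered by position within each window ("Irs2 region 9") and not assigned to a promoter, exon or intron, and the liver label was not checked against marker genes.

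Insulin signals through its receptor to adaptor proteins, of which IRS2 is a main one in the liver, and from there to the kinase AKT. AKT keeps the forkhead factor FOXO1 out of the nucleus. When insulin is low, as in fasting, FOXO1 enters the nucleus of hepatocytes and binds insulin response elements, and transcription of Irs2 and of Igfbp1 is known to rise. IGFBP1 is a secreted binding protein of insulin-like growth factors that hepatocytes release in fasting. IGFBP3 is the main carrier of these growth factors in blood and in the liver is known as a product of the cells other than hepatocytes.

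The start sites of the 3 genes show different kinds of promoter. Their sequences are given since insulin response elements are what the Irs2 and Igfbp1 loci are known for. Each is the stretch of 250 bases before the RefSeq start, written 5′ to 3′ along the gene, from build GRCm38.p6. These coordinates belong to another build than those of the regions and cannot be set beside them. Capitals mark matches to the core of the insulin response element (CAAAACA) or to the E-box (CACGTG) on either strand.
Irs2, chr8:11008930-11009179, minus strand: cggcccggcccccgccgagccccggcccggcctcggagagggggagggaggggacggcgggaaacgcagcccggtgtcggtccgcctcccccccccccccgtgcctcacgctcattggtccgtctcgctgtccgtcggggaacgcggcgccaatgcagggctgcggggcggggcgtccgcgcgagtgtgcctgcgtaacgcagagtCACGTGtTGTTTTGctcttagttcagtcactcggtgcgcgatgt
Igfbp1, chr11:7197537-7197786, plus strand: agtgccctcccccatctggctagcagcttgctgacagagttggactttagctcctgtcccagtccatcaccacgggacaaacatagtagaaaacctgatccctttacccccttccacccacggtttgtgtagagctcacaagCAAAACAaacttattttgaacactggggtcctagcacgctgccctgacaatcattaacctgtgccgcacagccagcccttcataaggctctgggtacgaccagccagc
Igfbp3, chr11:7213924-7214173, minus strand: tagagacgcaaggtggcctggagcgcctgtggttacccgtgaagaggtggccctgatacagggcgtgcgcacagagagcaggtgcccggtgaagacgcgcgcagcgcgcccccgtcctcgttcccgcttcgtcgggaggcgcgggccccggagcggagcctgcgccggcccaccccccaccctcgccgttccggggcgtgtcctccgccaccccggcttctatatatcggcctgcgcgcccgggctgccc

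In Irs2 an E-box at positions -44 to -39 lies 1 base before an insulin response element core on the other strand (TGTTTTG, -37 to -31). In Igfbp1 the core lies at -108 to -102. The core was found in both of these promoters and not in that of Igfbp3, against 5.56% of 32851 RefSeq promoter stretches of the same length. The E-box occurs in 6.02% of them. A FOXO site (GTAAACA, 3.17% of promoters), the cAMP response element (TGACGTCA, 1.55%) and a sterol regulatory element (TCACNCCA, 3.67%) had no match in these letters of any of the 3. The matched motifs do not overlap each other. The promoters of Irs2 and Igfbp3 are rich in G and C (72.8% and 73.2%, with 34 and 32 CpG pairs), while that of Igfbp1 has 53.2% and 5 pairs, near the median of 52.4% over all promoters.

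Each region was given, per library, the tallest maximum tag density among its hotspots, in the units of the deposited lists. The 6 lists held 49682 to 63476 hotspots. Relative depth, read from the step between densities, ran from 1 to 1.90, with fed replicate 3 (1.64) and fasted replicate 2 (1.90) the deepest, and a median hotspot was 44 to 57 tags high. Fold changes are log2 values of density + 1, fasted minus fed, with the library medians over all shared regions set equal.

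Fasting went with a rise of density at 8 of the 17 shared regions of the loci and a fall at 0, by limma with Benjamini-Hochberg adjustment over all 37044 shared regions. Over all shared regions 7.89% rose and 7.84% fell. The 8 were 3 of 4 in the Igfbp window and 5 of 13 in the Irs2 window, and the median log2 fold change was 0.77 and 0.22 in these windows, against 0.03 over all shared regions. On centred densities the 3 fasted libraries all stood above the 3 fed ones at 9 of the 17 regions (16.8% of all shared regions) and all below at 3 (14.6%). The count of rises depended on the scaling and on the regions kept. With densities as deposited 3 regions rose and 1 fell, and with quantile normalization 7 rose and 1 fell. Within the upper 50% of regions by density, where only 9 of the 17 were tested, 5 rose and 1 fell. Leaving out fed replicate 3 or fasted replicate 1 left 5 rises. In bulk liver, a site open in more cells and a site more open in each cell cannot be told apart.

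**Figure D1:**
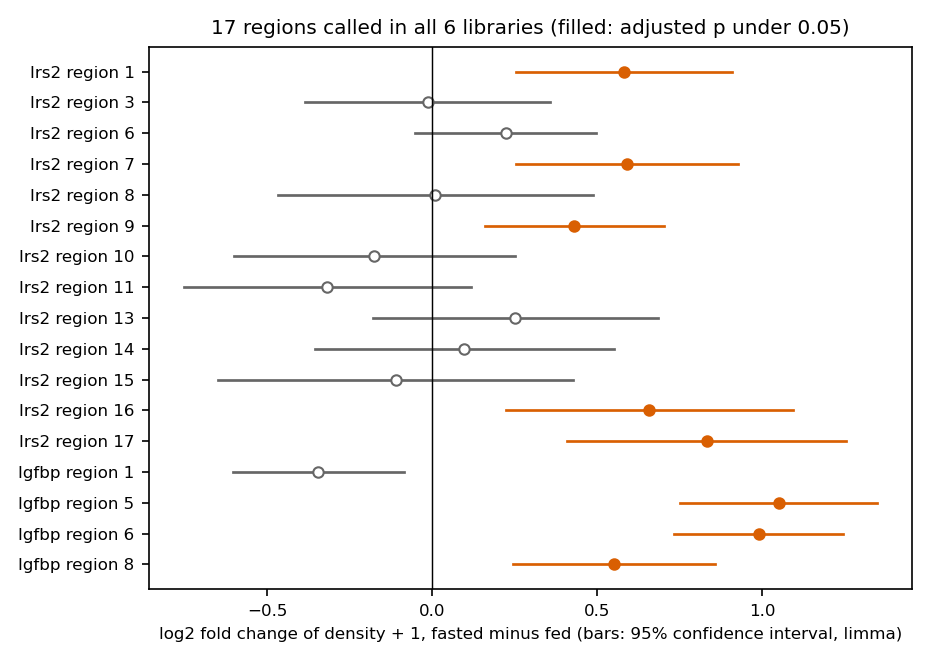
Log2 fold change of density + 1, fasted minus fed (horizontal axis), at the 17 shared regions of the loci, in order of position, with 95% confidence intervals from limma as bars. Filled points passed the adjusted threshold: 8 lie to the right of 0, up to 1.05 at Igfbp region 5, and none lies to the left.

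The 3 regions that rose in the Igfbp window lie within 6.42 kb on chromosome 11 (mm9, 7092228 to 7098648), and regions 5 and 6 among them had the largest changes of all 17 shared regions. Igfbp region 5 (7092228 to 7093455) had densities of 87.2, 70.8 and 57.7 in fed replicates 1 to 3 and of 151, 129 and 143 in fasted replicates 1 to 3. Every fasted library was higher than every fed one. Its mean went from 71.9 ± 14.8 to 140.9 ± 11.1 (SD, n = 3 each), and the log2 fold change was 1.05 (adjusted p = 2.73e-05, limma, with an SE of 0.14), above 98.3% of all shared regions. Its hotspots were also longer in fasted livers, at 1096, 1228 and 1065 bp in replicates 1 to 3, against 879, 933 and 989 bp in fed livers.

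Igfbp region 6 (7094113 to 7095917), 0.66 kb further along, is among the most accessible sites of the liver, with a mean density above that of 97.3% of shared regions. Its fed densities were 107, 83.9 and 92.9 and its fasted densities 188, 156 and 196, again with no overlap. The mean went from 94.7 ± 11.8 to 179.7 ± 20.9 (SD, n = 3 each), and the log2 fold change was 0.99 (adjusted p = 9.48e-06, limma, with an SE of 0.12). Its hotspot lengths overlapped between the groups, at 1586 to 1698 bp in fed and 1629 to 1805 bp in fasted livers. Regions 5 and 6 passed the threshold, with a rise, in all 19 alternative fits, with log2 fold changes of 0.93 to 1.18 and 0.86 to 1.10.

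Igfbp region 8 (7097111 to 7098648) rose less. It had fed densities of 69.1, 78.7 and 69.3 and fasted densities of 101, 81.5 and 125. The groups did not overlap, but fasted replicate 2 stood only just above fed replicate 2. Its log2 fold change was 0.55 (adjusted p = 0.0126, limma, with an SE of 0.15), and it lost the call in 4 of 19 alternative fits. These were densities as deposited (adjusted p = 0.0599), no mean-variance trend (0.0545) and those without fed replicate 1 (0.0554) or fasted replicate 3 (0.0754). Ratios between regions are of deposited densities, and their differences are of log2(density + 1). The ratio of region 5 to region 6 was 0.81, 0.84 and 0.62 in fed and 0.80, 0.83 and 0.73 in fasted libraries, a log2 difference of 0.06 that did not exceed the spread (exact permutation p = 0.9, also 0.9 adjusted). The ratio of region 5 to region 8 was 1.26, 0.90 and 0.83 in fed and 1.49, 1.58 and 1.14 in fasted libraries, which overlapped (log2 difference 0.50, exact permutation p = 0.2, 0.25 adjusted). The ratio of region 6 to region 8 went from 1.55, 1.07 and 1.34 in fed to 1.85, 1.92 and 1.56 in fasted libraries. This log2 difference of 0.44 had the smallest p that 3 against 3 allows (two-sided exact permutation p = 0.1, 0.167 after adjustment over 5 such ratios, which were chosen after the values were seen).

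Igfbp region 1 (7051716 to 7053975), at the other end of the window, had the highest mean density of all 27 regions and went the other way. It had fed densities of 192, 153 and 159.8 and fasted densities of 141, 116 and 119.9, with every fasted library below every fed one. Its log2 fold change of -0.35 (SE 0.12, interval -0.60 to -0.09) missed the threshold (adjusted p = 0.0649, limma). It passed as a fall in 3 of 19 alternative fits: densities as deposited (adjusted p = 0.0462), quantile normalization (0.00978) and the upper 50% of regions (0.0257). The ratio of region 6 to region 1 was 0.56, 0.55 and 0.58 in fed libraries and 1.33, 1.35 and 1.63 in fasted ones. Thus region 1 was the taller site in each fed library and region 6 in each fasted one. Being a ratio within each library, this does not depend on the scaling between libraries (log2 difference 1.33, two-sided exact permutation p = 0.1, the smallest possible, and 0.167 adjusted).

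**Figure D2:**
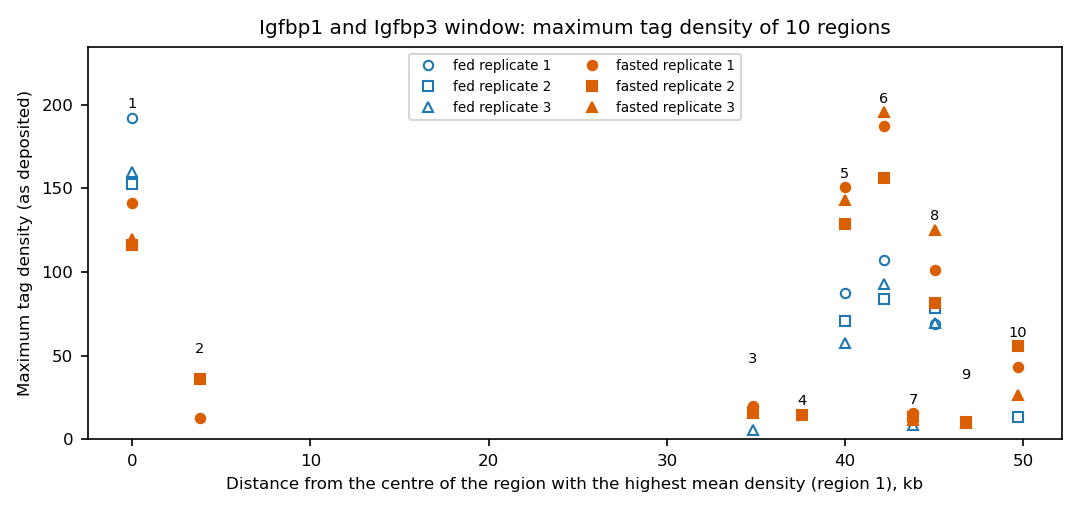
Maximum tag density as deposited (vertical axis) of the 10 regions of the Igfbp1 and Igfbp3 window, by distance in kb from the centre of region 1, with 1 point for each library that called the region (open: fed, filled: fasted). The fasted points lie above the fed points at regions 5, 6 and 8 and below them at region 1.

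The remaining 6 regions of the Igfbp window were not called in every library, and all 6 were called in more fasted than fed libraries. Over the whole series 42.1% of the 38125 regions that were not shared were called in more fasted and 41.8% in more fed libraries. Fed replicates 1 to 3 called 0, 1 and 2 of the 6, and fasted replicates 1 to 3 called 4, 6 and 4. Relative depth was 1.02, 1.00 and 1.64 in these fed libraries and 1.32, 1.90 and 1.24 in the fasted ones. Within each group the deepest library called the most, and the part of depth in the difference between the groups was not tested. Where a list lacks a region its density is unknown, not 0.

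Igfbp region 10 (7100324 to 7104752) was the broadest region of either window, at 4429 bp. That width is the hotspot of fasted replicate 2, the deepest library. Its density was 13.1 in fed replicate 2 and 43.1, 55.5 and 26.6 in fasted replicates 1 to 3, and it was not called in fed replicates 1 and 3. In those fed lists 95% of hotspots had densities above 5.15 and 3.43, which shows how low called densities reached there. These values hold for a whole list and are not the limit for a call at a given site. Irs2 region 2, for example, had no call in fasted replicate 3, while its densities were 15.4 to 17.9 where it was called. The densities of Igfbp region 10 in fed replicates 1 and 3 are therefore unknown. Its hotspots covered 1419 bp in fed replicate 2 and 3755, 4429 and 3112 bp in fasted replicates 1 to 3. In fasted replicate 3 this length was split over 2 hotspots, of 894 and 2218 bp. By exact Poisson intervals (95%, counting error only, 1 step taken as 1 tag) the fed density lay between 9.14 and 18.2 and the lowest fasted one between 21.4 and 32.8.

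Igfbp region 3 (7087307 to 7088019) was called in fed replicate 3 alone of the fed libraries, at a density of 5.72, and in fasted replicates 1 to 3 at 19.9, 16.4 and 15.7. Igfbp region 7 (7096308 to 7097022), which lies between regions 6 and 8, showed a smaller contrast, with 8.70 in fed replicate 3 and 15.3, 13.2 and 11.5 in the fasted libraries. Fed replicate 3, the deepest fed library, gave the only fed call of both. Regions 2, 4 and 9 had no fed call. Region 2 (7056236 to 7057007) was called in fasted replicates 1 and 2, at 12.5 and 35.9. Region 9 (7099081 to 7100144) was called in fasted replicates 2 and 3, at 10.5 and 9.69, and region 4 (7090127 to 7090760) in fasted replicate 2 alone, at 14.4. Of the 10 regions of both windows that were not shared, 0 were called in all 3 libraries of 1 group and in none of the other. Over the whole series the share was 2.31% for fasted and 3.10% for fed livers, so a count of 0 among 10 is near the background.

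**Figure D3:**
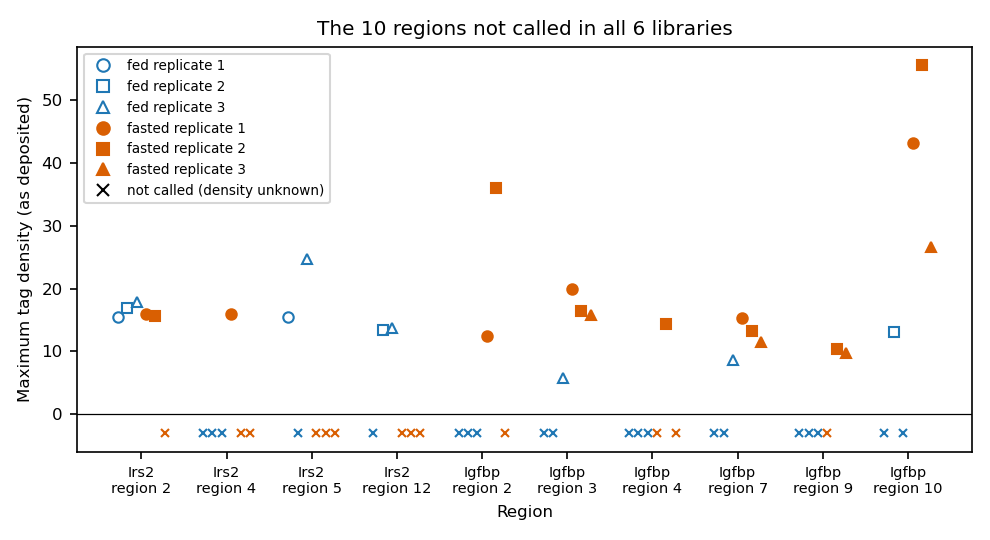
Maximum tag density as deposited (vertical axis) of the 10 regions that were not called in all 6 libraries, with 1 point per library (open: fed, filled: fasted). Crosses below 0 mark libraries without a call, whose density is unknown. In the Igfbp regions most crosses belong to fed libraries.

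The mean number of Igfbp regions called was 5 ± 1 in fed and 8.67 ± 1.155 in fasted libraries (SD, n = 3 each), and the length of DNA in their hotspots was 6.72 ± 0.68 and 11.97 ± 2.49 kb. In both measures every fasted library was above every fed one (two-sided exact permutation p = 0.1 each, the smallest that 3 against 3 allows, 0.2 after adjustment over 4 tests). Much of the difference in length lay in Igfbp region 10. It covered 1419 bp in fed replicate 2, with no call in the other fed libraries, and 3755, 4429 and 3112 bp in fasted replicates 1 to 3. The longest total, 14.75 kb, was that of fasted replicate 2, the deepest library. In the Irs2 window the number was 15.3 ± 0.58 in fed and 14.0 ± 1 in fasted libraries (exact permutation p = 0.3, 0.4 adjusted). The length there was 11.88 ± 1.48 and 10.86 ± 1.18 kb (exact permutation p = 0.4, also 0.4 adjusted). Fed and fasted libraries overlapped in both measures of the Irs2 window, and neither difference passed the test.

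After Igfbp region 10, which ends at 7104752, no library had a hotspot for 91.1 kb, up to 7195823. Of all gaps between neighbouring regions 7.91% were as long, and the median gap was 8.85 kb. The last 65.2 kb of the window therefore hold no region in fed or fasted liver. In the RefSeq gene order Igfbp1 follows Adcy1, an adenylyl cyclase gene, and Igfbp3 comes after Igfbp1, with Tns3 as the next protein-coding gene. Igfbp1 and Igfbp3 lie on opposite strands with their ends towards each other. Without mm9 gene positions, it was not tested where Igfbp3 lies in relation to the stretch without hotspots.

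The 5 regions that rose in the Irs2 window had log2 fold changes of 0.43 to 0.83. Irs2 region 9 (11008458 to 11010352 of chromosome 8) had the highest mean density there, above 94.8% of all shared regions. It stood at 107, 100.04 and 84.5 in fed replicates 1 to 3 and at 118, 121 and 134 in fasted replicates 1 to 3, with no overlap between the groups. Its mean went from 97.0 ± 11.4 to 124.3 ± 8.39 (SD, n = 3 each), and the log2 fold change was 0.43 (adjusted p = 0.0271, limma, with an SE of 0.13). This call was lost in 8 of 19 alternative fits by limma. These were densities as deposited (adjusted p = 0.121), quantile normalization (0.117), no mean-variance trend (0.111) and the upper 50% of regions (0.0807). The other 4 were the fits without fed replicate 2 (0.0593) or 3 (0.114) and without fasted replicate 2 (0.0535) or 3 (0.0704).

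The 3 regions nearest to Irs2 region 9 were weak sites, and none of them passed the test. Irs2 region 10 (11010847 to 11011767), 0.49 kb away, had densities of 19.5, 16.1 and 16.0 in fed and 15.0, 14.2 and 13.6 in fasted libraries. Irs2 region 11 (11011826 to 11012578) had 19.9, 13.9 and 16.5 in fed and 11.9, 12.0 and 13.3 in fasted libraries. At both the fasted libraries were all below the fed ones, but neither passed the test (log2 fold change -0.18 and -0.32, adjusted p = 0.636 and 0.354, limma). The interval for region 11 reached from -0.75 to 0.12, so these weak sites of 37 to 72 tags leave a wide range. The ratio of region 9 to region 10 was 5.47, 6.21 and 5.27 in fed and 7.85, 8.51 and 9.82 in fasted libraries, a log2 difference of 0.61 (exact permutation p = 0.1, the smallest possible, 0.167 adjusted). Irs2 region 8 (11006711 to 11008336), on the other side of region 9, had a log2 fold change of 0.01 (adjusted p = 0.985, limma), with an interval of -0.47 to 0.49 that includes the change of region 9.

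The other rises of tall sites in this window lie on the side of lower coordinates. Irs2 region 7 (10973909 to 10974739), 32.0 kb before region 8, had fed densities of 53.0, 46.5 and 37.8 and fasted densities of 66.4, 57.8 and 72.6. Its log2 fold change was 0.59 (adjusted p = 0.0148, limma, with an SE of 0.16). Irs2 region 1 (10939688 to 10940445), which crosses the start of the window, had 48.9, 41.6 and 40.7 in fed and 64.4, 54.7 and 69.3 in fasted libraries. It rose by 0.58 (adjusted p = 0.0139, limma, with an SE of 0.16). Neither region's groups overlapped, and each call was lost in 3 of 19 alternative fits. Region 7 lost it with densities as deposited (adjusted p = 0.0622, limma) and without fed replicate 3 (0.078) or fasted replicate 1 (0.0555). Region 1 lost it with densities as deposited (0.0628) and without fed replicate 2 (0.0538) or fasted replicate 1 (0.0589).

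Irs2 region 6 (10965152 to 10966110), between them, was nearly as tall as region 9 and did not pass the test. It had densities of 104, 85.1 and 99.8 in fed and 102, 99.1 and 119 in fasted libraries. The groups overlapped as deposited, while on centred densities the fasted libraries were all higher. The log2 fold change of 0.22 (interval -0.05 to 0.50, adjusted p = 0.297, limma) did not pass in any of the 19 alternative fits.

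At the far end of the window Irs2 regions 16 and 17 are weak sites 2.93 kb apart that both rose. Irs2 region 17 (11065829 to 11066535) had the greatest change of this window, from 14.3, 12.0 and 10.8 in fed to 23.3, 18.55 and 23.0 in fasted libraries. The log2 fold change was 0.83 (adjusted p = 0.00694, limma, with an SE of 0.20), and it passed in all 18 alternative fits that tested it. Its heights were only 32 to 94 tags, and the counting interval of fed replicate 1 (10.2 to 19.6) overlapped that of fasted replicate 2 (14.99 to 22.7). Irs2 region 16 (11062220 to 11062900) had 12.5, 16.1 and 13.3 in fed and 24.4, 19.9 and 19.98 in fasted libraries. It rose by 0.66 (adjusted p = 0.0353, limma, with an SE of 0.21) and lost the call in 7 of 18 alternative fits, by limma: the replicate block (adjusted p = 0.061), depth as a covariate (0.0634) and densities as deposited (0.0785). The others left out fed replicate 1 (0.133) or 3 (0.0865), or fasted replicate 1 (0.144) or 2 (0.0583).

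Besides Irs2 regions 6, 10 and 11, the regions that did not pass were 3, 8, 13, 14 and 15, with mean densities of 11.8 to 30.3. All 8 that did not pass had log2 fold changes of -0.32 to 0.25 with standard errors of 0.13 to 0.26. The widest interval, of region 15, reached from -0.65 to 0.43, so changes of that size were not detectable there with 3 libraries a group.

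**Figure D4:**
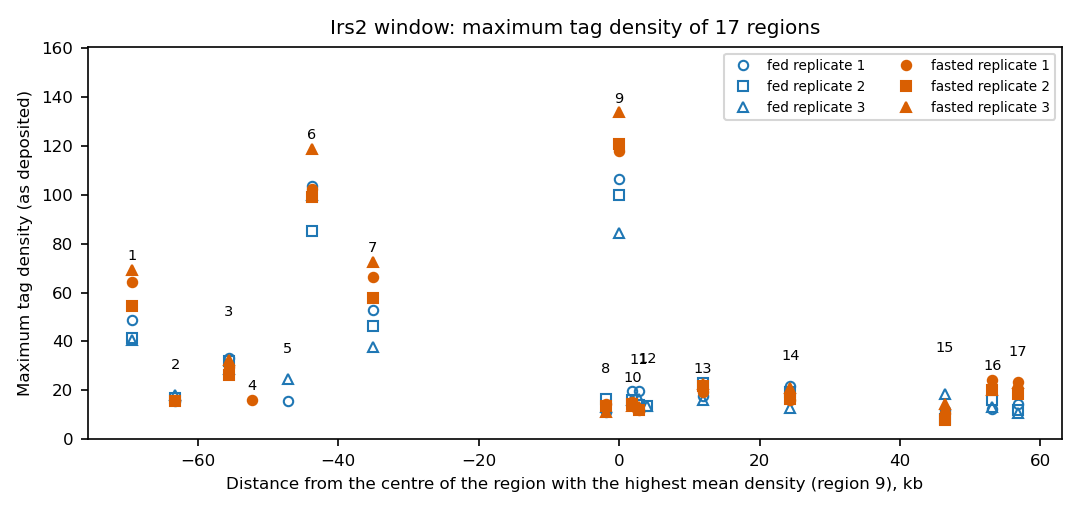
Maximum tag density as deposited (vertical axis) of the 17 regions of the Irs2 window, by distance in kb from the centre of region 9, with 1 point for each library that called the region (open: fed, filled: fasted). Regions 6 and 9 are the tallest. Fasted points lie above fed points at regions 1, 7, 9, 16 and 17.

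Of the 4 Irs2 regions that were not shared, 3 were called in more fed than fasted libraries and 1 in more fasted ones. Over the whole series 41.8% of the regions that were not shared were called in more fed and 42.1% in more fasted libraries. Region 5 (10961862 to 10962523) was called in fed replicates 1 and 3, at 15.4 and 24.7, and region 12 (11013100 to 11013724) in fed replicates 2 and 3, at 13.5 and 13.7. Neither had a fasted call. Region 2 (10945886 to 10946554) was called in every library but fasted replicate 3, at densities of 15.4 to 17.9, and region 4 (10956850 to 10957299) in fasted replicate 1 alone, at 15.9. Whether the share of fed calls differs between the windows was not tested.

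The windows do not mark the ends of the changes. Just outside the Irs2 window on the lower side, the shared region at 10936391 to 10937372 had a log2 fold change of -0.04 (adjusted p = 0.924, limma). The next ones out, at 10935027 to 10935886 and 10928064 to 10929108, had log2 fold changes of 1.40 and 1.14 (adjusted p = 1.47e-05 and 3.51e-05, limma), both greater than any in the window. On the upper side the region at 11080590 to 11081521 had 0.62 (adjusted p = 0.0534, limma). Around the Igfbp window, the nearest shared regions at 7047755 to 7048716 and 7195824 to 7196592 had 0.09 and -0.04 (adjusted p = 0.819 and 0.933, limma).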

How the data were processed

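DNase I hypersensitive sites were sequenced from fed and fasted mouse liver. Per the labels' protocols, the enzyme was used at 40 U/ml, and fragments from 100 to 500 bp long were kept. The submitters' processing notes name CASAVA 1.8 and build mm9. For the programs that aligned reads and called hotspots, the sources used here give no name. Hotspots were called per library. Per the file headers, the deposited coverage signal is a maximum and an average tag density per hotspot, of unstated scale. Per the file headers, the authors also deposited a score (Zscore) and a p-value of each hotspot which entered no test.

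Hotspots of chromosomes 1 to 19 and X were merged (1 bp overlap). Shared regions were tested with limma 3.58.1 under R 4.3.3, using log2(density + 1) centred per library, eBayes with trended variance, and Benjamini-Hochberg adjustment (threshold 0.05). The fit was checked on simulated data. Window totals used exact permutation tests over all groupings of the libraries, with p-values adjusted in scipy 1.17.1. All densities were whole multiples of 1 step per library (100% within 0.05 step); relative depth and tag heights take 1 step as 1 tag, which is not stated. Sampling noise alone would give pairs of replicates a mean squared z near 1; it was 2.18 to 5.80, and no duplicates were found.

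Windows and lists were chosen with earlier results of these data known. Values in every library are given, by rule, for regions that passed, the tallest of each window, the largest change that did not pass, and regions called in all 3 libraries of 1 group and none of the other (0 here); others were added after their values were seen. Lists of insulin pathway and cell type genes needed an mm9 annotation and were not used here. Alternatives were other pseudocounts (0.1 and 10), scalings, average density, filled missing values, filters, merging within 150 bp, the replicate block, depth and leaving out each replicate.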

Additional observations from a re-analysis of the deposited data

How the results depend on the processing

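Over the 19 alternative fits, 270 of 312 values of the shared regions kept their direction and side of the threshold, 25 lost the call and 4 gained one. The number of regions that rose was 3 with no centring (1 fell), 5 in the upper 50% by density (1 fell), where fewer regions were tested, and 5 to 6 without each replicate; quantile normalization had 1 fall. The replicate block gave 7 rises and 0 falls; deviations of libraries with the same number correlated at -0.067, -0.030 and -0.167, and the numbers were not taken as pairs. Signs turned only at uncalled Irs2 regions near 0: region 3 with filled values (0.10) and depth (0.0296), and -0.0441 to 0.0171 without each replicate; region 8 with no centring (-0.0619) and depth (-0.0663), and -0.14 to 0.18 without each replicate; regions 14 (-0.0922 to 0.23) and 15 (-0.35 to 0.19) without each replicate. The cause was not tested. Regions called in every fasted and no fed library numbered 2 with a cover of 50%, 1 with lists of equal length and 0 to 2 without each replicate. Those of fed libraries alone numbered 0 to 1. Leaving out a library lowers the number of calls needed and takes its own calls away. Igfbp regions 3 and 7, for example, had their only fed call in fed replicate 3. The shares over the whole series (2.31% and 3.10%) are for the main setting alone. With missing calls filled by the lowest density, Igfbp regions 3 and 10 also rose (adjusted p = 0.0128 and 0.0113, limma), a direction that the missing fed calls fix. Weak sites of 22 to 111 tags carry a large counting error.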
